A study of Rattus norvegicus with 10 samples.

Results

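A set of 10 genes of hemoglobin and of heme and iron recycling was examined in splenic M2 macrophages of rats, out of 9003 genes in the table. They were chosen by name: the hemoglobin chains *Hba1* and *Hbb*, the heme-breakdown enzymes *Hmox1* and *Blvrb*, the ferritin chains *Fth1* and *Ftl1*, the carriers and receptors *Slc40a1*, *Tfrc* and *Cd163*, and the transcription factor gene *Spic*. All 10 had a row in the table. The RNA-seq libraries, 10 in all, came from WKY/NCrj rats, and those of the nephritis model were females aged 7 to 12 weeks. The control group (n = 2) was the physiological condition. The GN group (n = 2) came from rats with glomerulonephritis and no cell treatment, where nephritis was induced by TF78, a mouse monoclonal antibody against the glomerular basement membrane. The EV+ (n = 3) and EV- (n = 3) groups came from nephritic rats that were also given human adipose-derived mesenchymal stem cells (ASCs) labeled with the membrane dye DiD. EV+ macrophages were sorted as DiD-positive, which the study took as having received extracellular vesicles (EVs), and EV- macrophages as DiD-negative. Red blood cells were lysed before sorting. The day of spleen collection for RNA-seq and any pooling of animals were not given in the sources used here.

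Splenic macrophages engulf aged red blood cells, digest their hemoglobin and free the iron from heme. Heme oxygenase opens the heme ring, biliverdin reductase acts on the pigment that results, ferritin stores the iron, and ferroportin returns it to plasma. Hemoglobin itself, of α and β chains, is made mainly in red blood cell precursors.

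The clearest contrast lay in the hemoglobin chains. Both *Hba1* and *Hbb* rose in GN over control, and both sat above the control libraries in all 8 nephritic libraries. No gene of the 10 passed the test between EV+ and EV-, between EV+ and GN, or between EV- and GN. Heme oxygenase 1 and both ferritin chains were lower on average in each nephritic group than in control, and none of these differences passed the main test, limma, though some count-based tests called *Hmox1* in EV+ and *Ftl1* in EV-. The receptor gene *Cd163* had no read in 3 of 10 libraries.

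Values are TMM-normalized CPM, that is, reads of a gene relative to the reads of its library, scaled by trimmed means of M-values. Libraries held 19270515 to 26617093 reads on the genes of the table. At this depth 3 reads, taken as the floor of detection, were worth 0.113 to 0.153 CPM. Differences are on the log2(CPM + 1) scale, which understates changes of genes near 1 CPM, and a gene was called at a limma adjusted p under 0.1 over all genes of the table. The share of all genes at an unadjusted p under 0.05 was not counted, so counts at that threshold have no background here. Where libraries of a gene are said to lie apart and no share of all genes is given, this only describes its values. Levels of different genes are not compared, since values are not per length. The EV- libraries were high in *Prf1*, the gene of the cytotoxic cell protein perforin, at 334.5, 51.4 and 24.5 CPM against 7.0 to 18.4 CPM in all control, GN and EV+ libraries, and EV- replicate 1 was the farthest from the rest.

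The label of macrophage was checked against marker genes. *Lyz2* (15325 to 20176 CPM), *Csf1r* (5800 to 8155 CPM), the receptor for macrophage colony-stimulating factor, and *Adgre1* (1025 to 1491 CPM), which encodes the macrophage antigen F4/80, were present in every library. *Cd163* (0 to 1.81 CPM) and *Mrc1* (0 to 1.81 CPM), 2 receptors widely used to mark M2 macrophages, were under 2 CPM in every library, and each had libraries with no read. The antibodies of the M2 gate were not used here, and the label is kept as the study gave it.

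Promoter sequences of the hemoglobin chains are shown because these 2 genes were the ones called in nephritis. They are from RefSeq on the GRCr8 build of the rat genome, a later build than the rn6 on which the reads were counted, and each is the 150 bases before the start of transcription on the minus strand. *Hba1* is a synonym of both *Hba-a1* and *Hba-a2* there, so that both are given and the row cannot be assigned to either. Hbb lies at chr1:167663722-167663871, Hba-a1 at chr10:15842581-15842730 and Hba-a2 at chr10:15829139-15829288. Capitals mark the CCAAT box, the CACCC box and the ATAAA motif (of the TATA type) on either strand, where boxes on the 2 strands can overlap.
Hbb: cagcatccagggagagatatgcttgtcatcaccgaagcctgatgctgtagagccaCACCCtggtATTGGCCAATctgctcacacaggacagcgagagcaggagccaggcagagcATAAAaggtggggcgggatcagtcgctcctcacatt
Hba-a1: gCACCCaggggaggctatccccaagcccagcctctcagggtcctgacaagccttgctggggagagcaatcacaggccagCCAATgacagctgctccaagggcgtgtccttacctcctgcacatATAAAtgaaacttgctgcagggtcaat
Hba-a2: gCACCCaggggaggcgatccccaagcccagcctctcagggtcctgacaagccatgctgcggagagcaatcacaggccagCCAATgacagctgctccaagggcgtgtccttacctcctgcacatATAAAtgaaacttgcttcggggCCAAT

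The *Hba-a1* and *Hba-a2* windows were identical at 144 of 150 bases (96.0%). All 3 windows held each of these motifs, with ATAAA beginning at base -36 of *Hbb* and at base -27 of both α genes, counted from -1 just before the start. These short motifs are common: within 250 bases before the start, 34.0% of 33469 rat promoters held the CCAAT box, 49.2% the CACCC box and 39.3% the ATAAA motif on either strand. Of the 10 genes, 6 had an entry by symbol, *Hbb*, *Blvrb*, *Slc40a1*, *Tfrc*, *Cd163* and *Spic*. The erythroid factor motif GATAA, held by 23.5% of all promoters, was present within 250 bases in *Hba-a1* and *Hba-a2* and in none of these 6. The antioxidant response element core TGACNNNGC, held by 10.1% of all promoters, was in *Hba-a1* and in none of these 6. A match describes letters, not a bound site.

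*Hba1*, an α chain of hemoglobin, was at 0.193 and 0.165 CPM in control (5 and 4 reads) and at 2.01 and 2.34 CPM in GN (51 and 62 reads). The GN values lay far above the control values, beyond counting error: the 95% Poisson intervals ended at 0.449 and 0.422 CPM in control and began at 1.50 and 1.79 CPM in GN. These intervals cover counting error only, since reads carry no molecular identifiers. In EV+ the values were 0.508, 1.31 and 1.12 CPM (13, 31 and 25 reads), and in EV- 1.21, 0.765 and 1.56 CPM (25, 15 and 40 reads). Every EV+ and EV- library fell between the control and the GN libraries, and the EV+ and EV- ranges overlapped.

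*Hbb*, a β chain, was at 1.0 and 1.44 CPM in control (26 and 35 reads) and at 5.25 and 4.11 CPM in GN (133 and 109 reads). Its EV+ values were 2.77, 3.49 and 2.68 CPM (71, 83 and 60 reads), and its EV- values 3.16, 2.96 and 4.75 CPM (65, 58 and 122 reads). Control and GN did not overlap, the 3 EV+ libraries lay between them, and EV- replicate 3 reached into the range of GN. Over the 10 libraries *Hba1* and *Hbb* moved together (Pearson r = 0.91 on the log2 scale), a description of libraries that also share groups and depth.

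**Figure D1:**
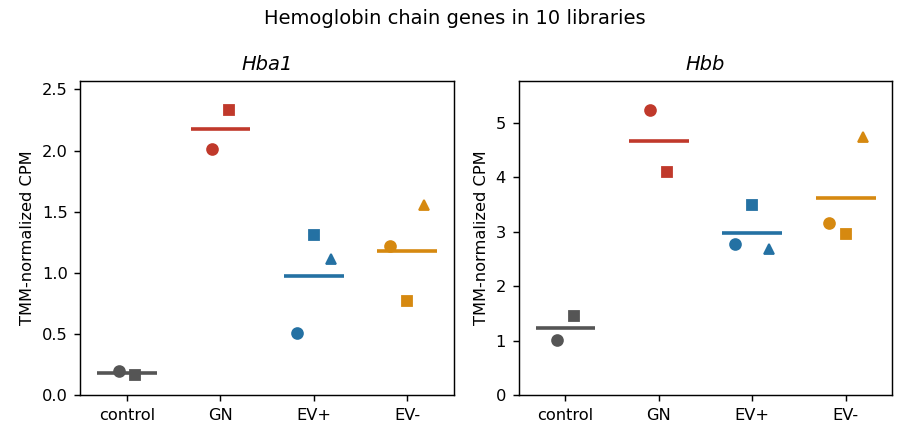
TMM-normalized CPM (y axis, from 0) of Hba1 and Hbb in each library of control, GN, EV+ and EV- (x axis). Points are libraries (circle, square and triangle for replicates 1, 2 and 3) and lines are group means. The 2 control libraries sit lowest in both panels, at up to 0.193 CPM for Hba1 and 1.44 CPM for Hbb, and the GN mean is the highest, at 2.17 and 4.68 CPM.

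Between GN and control, mean *Hba1* was 2.17 ± 0.229 CPM (SD, n = 2) against 0.179 ± 0.0195 CPM (SD, n = 2), a ratio of 12.2, and the fitted difference was 1.43 (SE 0.309, limma adjusted p = 0.0439). Mean *Hbb* was 4.68 ± 0.806 CPM in GN (SD, n = 2) against 1.22 ± 0.313 CPM in control (SD, n = 2), a ratio of 3.82, with a fitted difference of 1.35 (SE 0.265, limma adjusted p = 0.0239). These 2 of the 10 genes were called, both higher, where 1.75% of all genes were called in this comparison and 0.933% were higher in GN. In bulk RNA, more cells of a type and more RNA per cell cannot be told apart. The calls rested on single libraries: *Hba1* was not called without control replicate 1 (limma adjusted p = 0.173), control replicate 2 (0.193), GN replicate 1 (0.196) or GN replicate 2 (0.328). *Hbb* was not called without control replicate 1 (0.168), GN replicate 1 (0.227) or GN replicate 2 (0.114). Both genes were called by limma, by both tests of edgeR and by DESeq2 when no library was left out.

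Genes that accompany hemoglobin in red blood cell precursors were nearly absent from the table, which holds only genes that reach about 1 CPM in at least 1 library. Of 43 erythroid markers, 3 had a row: 3 of 26 erythroid genes, and none of 17 other globin symbols. The 17 include *Hba-a1* and *Hba-a2*, of which *Hba1* is a synonym, so a missing row there does not show missing RNA. Among the 26, *Alas2*, the erythroid enzyme of heme synthesis, *Slc4a1*, the band 3 anion exchanger, and the erythroid factors *Klf1* and *Gata1* had no row. The 3 with a row were *Gfi1b* (25.1 to 38.0 CPM), a repressor of erythroid and megakaryocyte cells, *Bpgm* (23.9 to 32.5 CPM), the bisphosphoglycerate mutase of red cells, and *Gypc* (2.34 to 5.01 CPM), glycophorin C. Their summed level was 54.2 to 55.5 CPM in control, 63.3 to 73.0 in GN, 61.4 to 68.4 in EV+ and 64.3 to 73.7 in EV-. Control thus lay below the other groups in the sum, and gene by gene only for *Gfi1b*. *Bpgm* in EV+ replicate 3 (23.9 CPM) was below both control libraries (26.0 and 25.9 CPM). *Gypc* in EV- replicate 2 (2.34 CPM), EV- replicate 3 (3.19 CPM) and EV+ replicate 2 (3.20 CPM) was likewise below control (3.58 and 3.26 CPM). None of the 3 was called in any of the 6 comparisons by limma, edgeR's quasi-likelihood test or DESeq2, and the likelihood-ratio test called *Gfi1b* in EV- against control. By limma 1 each reached an unadjusted p under 0.05 in EV+ against control and EV- against control. The part of these cells in the hemoglobin values was not tested. No row was found for any of 6 platelet markers.

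Summed levels of other cells' markers also differed between GN and control, though in this comparison limma called 1 stromal and endothelial marker (higher), 1 B cell marker (lower), and none of the neutrophil, dendritic cell or T and NK cell markers (2, 2 and 4 at an unadjusted p under 0.05). The summed level of 8 neutrophil markers of 11 listed was 550 to 556 CPM in control and 611 to 690 CPM in GN, that of 4 stromal and endothelial markers of 8 listed 245 to 267 CPM against 349 to 354 CPM, and that of 5 dendritic cell markers of 8 listed 26.7 to 32.1 CPM against 38.3 to 39.2 CPM. Most of the neutrophil sum was *Csf3r*, with means of 528 CPM in control and 625 CPM in GN, while *S100a9* averaged 12.3 and 9.98 CPM. The 6 B cell markers of 9 listed summed to 91.8 to 113 CPM in control and to 46.7 to 72.2 CPM in GN. The 14 T and NK cell markers of 17 listed summed to 1655 to 1688 CPM in control, 1698 to 1743 in GN, 1746 to 1865 in EV+ and 1659 to 2308 in EV-. Most of this sum in control and GN was *Cd4*, with means of 1216 and 1266 CPM, so it is not a measure of these cells as a whole. The 11 macrophage markers of 12 listed summed to 29470 to 30415 CPM in control and 33530 to 34270 CPM in GN. The largest of them, *Lyz2*, averaged 15719 and 19720 CPM. Limma called 4 of the 11 in GN against control, 2 higher and 2 lower, and their median difference was -0.11. The part of all these cells in the hemoglobin result was not tested.

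In rats given ASCs, the hemoglobin chains stood between control and GN. *Hba1* averaged 0.976 ± 0.416 CPM in EV+ (SD, n = 3) and 1.18 ± 0.397 CPM in EV- (SD, n = 3), and both means were below that of GN. The fitted difference of *Hba1* from GN was -0.70 in EV+ (95% confidence interval -1.31 to -0.10, unadjusted p = 0.0258, limma adjusted p = 0.661) and -0.56 in EV- (-1.16 to 0.05, limma adjusted p = 0.672). For *Hbb* it was -0.51 in EV+ (-1.03 to 0.01, limma adjusted p = 0.708) and -0.31 in EV- (-0.83 to 0.21, limma adjusted p = 0.829). Both groups thus averaged less hemoglobin RNA than GN, and no difference passed the correction over all genes. Only that of *Hba1* in EV+ had an unadjusted p under 0.05 by limma.

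Against control, with the same 2 control libraries, *Hbb* was higher by 1.04 in EV- (SE 0.242, limma adjusted p = 0.0466), a ratio of 2.96, and 0.84 higher in EV+ (SE 0.242, limma adjusted p = 0.101), a ratio of 2.44. *Hba1* was 0.87 higher in EV- (SE 0.282, limma adjusted p = 0.173) and 0.72 higher in EV+ (SE 0.282, limma adjusted p = 0.243). By limma *Hbb* in EV- was the single call among the 10 genes, with 2.84% of all genes called in EV- against control, and there was no call in EV+ against control, with 3.63% of all genes called. In each of these comparisons 5 of the 10 genes had an unadjusted p under 0.05 by limma. In EV+ against control, edgeR's quasi-likelihood test called none of the 10, and its likelihood-ratio test and DESeq2 each called 3, *Hba1*, *Hbb* and *Hmox1*. In EV- against control, the quasi-likelihood test called 2 (*Ftl1* and *Hbb*), the likelihood-ratio test 2 (*Hba1* and *Hbb*) and DESeq2 3 (*Ftl1*, *Hba1* and *Hbb*). *Hbb* in EV- was not called without control replicate 1 (limma adjusted p = 0.268), control replicate 2 (0.160) or EV- replicate 3 (0.143), nor when only these groups were fitted (0.120). It was called without EV- replicate 1 (0.0721). The test of any difference among the 4 groups called *Hbb* (limma adjusted p = 0.0549) and not *Hba1* (0.126), which is 1 of the 10 genes where 2.57% of all genes were called. That call ended without either control library, either GN library or EV+ replicate 3, where 0 of the 10 genes were called.

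EV+ and EV- macrophages of the same treatment were set against each other. They were sorted by dye, so an effect of vesicle transfer and a difference in which cells take up the dye cannot be told apart. The paper also proposes that vesicles may briefly touch DiD-negative macrophages. The hemoglobin chains did not differ beyond their spread: EV+ minus EV- was -0.15 for *Hba1* (95% confidence interval -0.69 to 0.39) and -0.20 for *Hbb* (-0.66 to 0.26). None of the 10 genes was called by limma, edgeR or DESeq2, and 1, *Spic*, had an unadjusted p under 0.05 by limma. The background was 0.0222% of all genes called. The intervals leave room for differences of up to 0.69 in *Hba1*, so that the groups are not shown to be alike. They come from a fit that treated the EV+ and EV- libraries as unpaired.

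**Figure D2:**
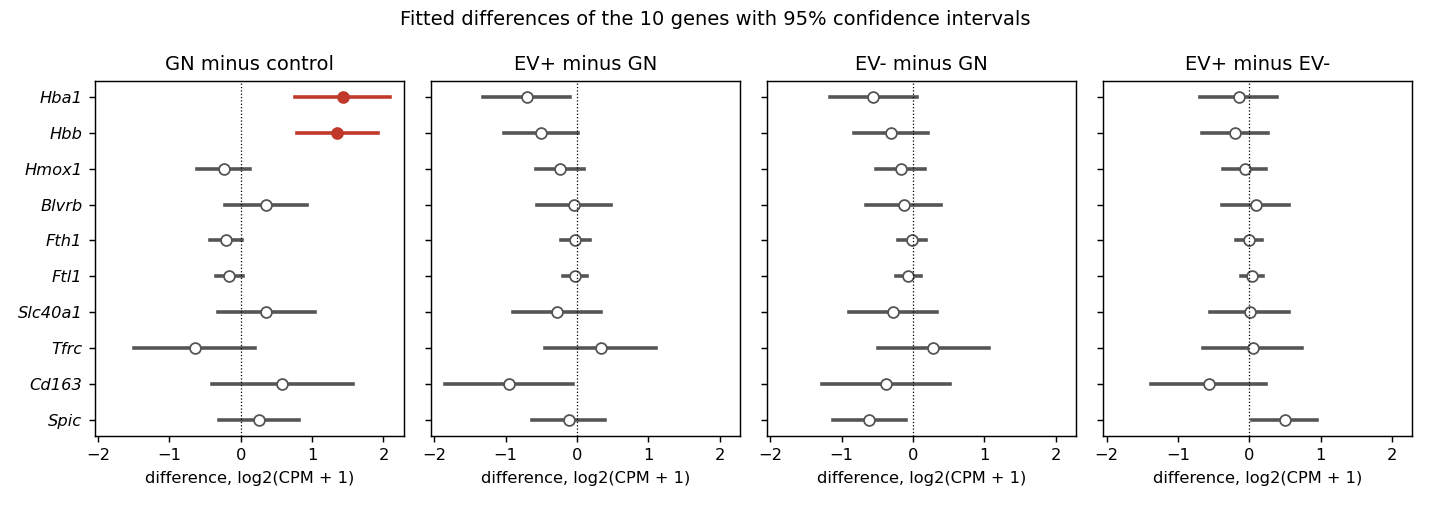
Fitted differences on the log2(CPM + 1) scale (x axis) of the 10 genes (y axis) in GN minus control, EV+ minus GN, EV- minus GN and EV+ minus EV-, with 95% confidence intervals as lines. Filled red points mark genes with a limma adjusted p under 0.1, which are Hba1 (1.43) and Hbb (1.35) in GN minus control and no gene in the other 3 panels.

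*Hmox1* encodes heme oxygenase 1, the inducible enzyme that breaks heme down to biliverdin, carbon monoxide and iron. It was at 265 and 210 CPM in control, 196 and 204 CPM in GN, 186, 145 and 179 CPM in EV+, and 217, 140 and 183 CPM in EV-. Control was highest on average and did not overlap GN or EV+, while EV- replicate 1 passed the lower control library. The difference from control was -0.24 in GN (SE 0.173, limma adjusted p = 0.695), -0.48 in EV+ (SE 0.157, unadjusted p = 0.00885, limma adjusted p = 0.157) and -0.41 in EV- (SE 0.157, limma adjusted p = 0.267). In EV+ against control it was called by edgeR's likelihood-ratio test and by DESeq2, though not by limma or edgeR's quasi-likelihood test. EV+ and EV- differed by -0.07 (95% confidence interval -0.37 to 0.24).

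*Blvrb*, one of the biliverdin reductases, was at 4.51 and 3.18 CPM in control, 4.97 and 5.27 CPM in GN, 5.70, 5.35 and 3.93 CPM in EV+, and 5.10, 3.26 and 5.68 CPM in EV-. The control libraries were below both GN libraries and overlapped EV+ and EV-. The difference of GN from control, 0.35 (SE 0.265, limma adjusted p = 0.715), was not called.

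Ferritin, the shell that stores iron, is built of heavy and light chains, here *Fth1* and *Ftl1*. Together they took 1.89% to 2.37% of the reads of a library on the genes of the table. *Fth1* was at 12657 and 13636 CPM in control, 10933 and 11860 CPM in GN, 12512, 9936 and 11373 CPM in EV+, and 11348, 11103 and 11366 CPM in EV-. Both control libraries lay above all 8 nephritic libraries, the nearest of which was EV+ replicate 1. The differences from control were -0.21 in GN (SE 0.103, limma adjusted p = 0.526), -0.23 in EV+ (SE 0.0942, limma adjusted p = 0.274) and -0.22 in EV- (SE 0.0942, limma adjusted p = 0.324). Both are members of families with many pseudogenes, so that reads could be split among copies.

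*Ftl1* was at 10713 and 10536 CPM in control, 9504 and 9483 CPM in GN, 9906, 8542 and 9576 CPM in EV+, and 9255, 8650 and 9276 CPM in EV-. As for *Fth1*, both control libraries were above all nephritic libraries. The differences from control were -0.16 in GN (SE 0.0880, limma adjusted p = 0.577), -0.19 in EV+ (SE 0.0803, limma adjusted p = 0.287) and -0.23 in EV- (SE 0.0803, unadjusted p = 0.0125, limma adjusted p = 0.212). The last was called by edgeR's quasi-likelihood test and by DESeq2. Between EV+ and EV- the differences were -0.01 for *Fth1* (95% confidence interval -0.19 to 0.17) and 0.04 for *Ftl1* (-0.11 to 0.20), which are the narrowest intervals among the 10 genes.

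The hemoglobin chains and the ferritin chains thus separated control from nephritis in opposite directions. These 4 of the 10 genes did not overlap between the 2 control and the 8 nephritic libraries, with *Hba1* and *Hbb* higher and *Fth1* and *Ftl1* lower in nephritis, where 12.6% of all genes did not overlap. This grouping was chosen after the values were seen. Between GN and control alone, 7 of the 10 genes did not overlap, where 43.9% of all genes did not.

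**Figure D3:**
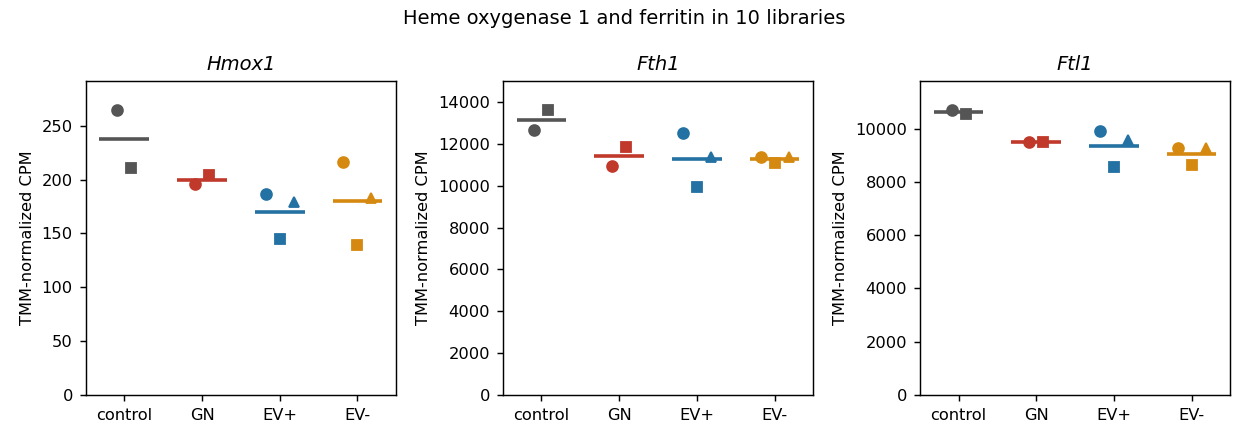
TMM-normalized CPM (y axis, from 0) of Hmox1, Fth1 and Ftl1 in each library of control, GN, EV+ and EV- (x axis), with points for libraries (circle, square and triangle for replicates 1, 2 and 3) and lines for group means. The control mean is the highest in each panel, at 238 CPM for Hmox1, 13147 CPM for Fth1 and 10624 CPM for Ftl1.

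The other genes gave few reads. *Slc40a1*, which encodes ferroportin, the iron exporter, was at 1.19 and 1.20 CPM in control (31 and 29 reads), 2.21 and 1.47 CPM in GN, 1.29, 1.47 and 1.20 CPM in EV+, and 1.94, 1.58 and 0.623 CPM in EV-. Both GN libraries were above control, and the EV- libraries spanned the values of every group apart from GN replicate 1. The difference of GN from control was 0.36 (SE 0.314, limma adjusted p = 0.779).

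*Tfrc*, the transferrin receptor that takes up iron bound to transferrin, was at 4.62 and 2.10 CPM in control, 2.41 and 1.09 CPM in GN, 1.41, 2.78 and 3.17 CPM in EV+, and 1.36, 3.57 and 2.18 CPM in EV-. All groups overlapped, and replicates of a group differed by as much as the groups did. GN minus control was -0.65 (SE 0.395, limma adjusted p = 0.639).

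*Cd163*, the scavenger receptor for hemoglobin bound to haptoglobin, was at 1.16 and 0 CPM in control (30 and 0 reads) and at 1.81 and 0.716 CPM in GN (46 and 19 reads). In EV+ it was at 0.313, 0.126 and 0 CPM (8, 3 and 0 reads), and in EV- at 1.12, 1.27 and 0 CPM (23, 25 and 0 reads). Control and EV- each held a library with no read beside libraries with 23 to 30 reads, and the 3 EV+ libraries were all below GN. For the libraries at 0, the 95% Poisson intervals reached up to 0.152 CPM in control, 0.165 CPM in EV+ and 0.144 CPM in EV-. EV+ minus GN was -0.95 (95% confidence interval -1.85 to -0.05, unadjusted p = 0.0401, limma adjusted p = 0.686) and EV+ minus EV- was -0.57 (-1.37 to 0.24). Beside *Hba1*, it was the other of the 2 genes with an unadjusted p under 0.05 between EV+ and GN, where none of the 10 was called by limma, edgeR or DESeq2 and 0.122% of all genes were called.

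*Spic*, whose factor Spi-C directs the development of iron-recycling macrophages of the splenic red pulp, was at 3.66 and 5.36 CPM in control, 6.82 and 4.44 CPM in GN, 5.31, 4.50 and 5.26 CPM in EV+, and 4.08, 3.21 and 2.61 CPM in EV-. The 3 EV- libraries were below every EV+ and GN library, and control overlapped all groups. *Spic* averaged 5.03 ± 0.453 CPM in EV+ (SD, n = 3) and 3.30 ± 0.742 CPM in EV- (SD, n = 3). The fitted difference was 0.50 (95% confidence interval 0.04 to 0.96, unadjusted p = 0.0348, limma adjusted p = 1.0). With EV- replicate 1 left out, the difference was 0.63. It was the sole gene of the 10 whose EV+ and EV- libraries did not overlap, where 8.91% of all genes did not. EV- minus GN was -0.62 (95% confidence interval -1.13 to -0.10, unadjusted p = 0.0217, limma adjusted p = 0.529), and this was the sole unadjusted p under 0.05 among the 10 genes in EV- against GN, where none was called by limma, edgeR or DESeq2 and 0.378% of all genes were.

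**Figure D4:**
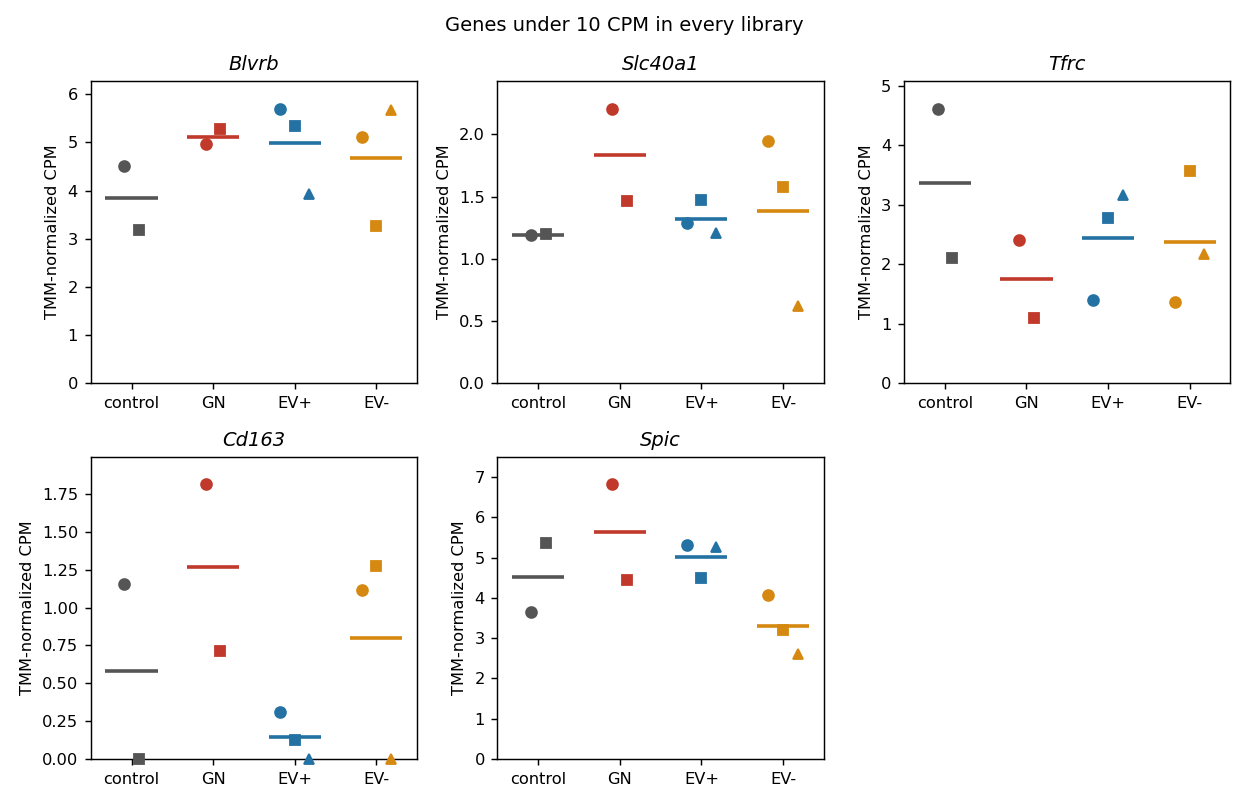
TMM-normalized CPM (y axis, from 0) of Blvrb, Slc40a1, Tfrc, Cd163 and Spic in each library of control, GN, EV+ and EV- (x axis), with points for libraries (circle, square and triangle for replicates 1, 2 and 3) and lines for group means. Cd163 lies at 0 in 3 libraries, and the 3 EV- points of Spic, at 2.61 to 4.08 CPM, lie below the EV+ points, at 4.50 to 5.31 CPM.

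Of 58 further genes of heme and iron handling, 44 had a row. In GN against control 1 was higher and 1 lower (0.933% and 0.822% of all genes), and the median difference of the 44 was -0.02 against 0.00 over all genes. In EV+ against control 2 were higher (1.82% of all genes), in EV- against control 1 was lower (1.56% of all genes), and none was called between EV+ and EV-, EV+ and GN, or EV- and GN by limma, edgeR or DESeq2 (1, 1 and 3 at an unadjusted p under 0.05 by limma). The 8 heme synthesis enzymes, led by *Cpox* (126 to 171 CPM), the 6 genes of iron-sulfur cluster assembly, led by *Iscu* (83.9 to 105 CPM), and the 8 iron regulators, led by *Nfe2l2* (310 to 422 CPM), held no call by limma. Nor did the biliverdin reductase *Blvra* (1255 to 1455 CPM), the heme and hemopexin receptor gene *Lrp1* (340 to 509 CPM), the heme carrier gene *Abcg2* (37.0 to 48.2 CPM), the transferrin gene *Tf* (964 to 1247 CPM) or *Hfe* (4.14 to 7.16 CPM), a regulator of hepcidin. The likelihood-ratio test and DESeq2 also called *Cp* and *Lrp1* in GN against control, and *Slc11a1* in EV+ against control.

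*Slc11a1*, the metal transporter of the phagosome membrane also called Nramp1, was at 231 and 237 CPM in control, 172 and 151 CPM in GN, 198, 197 and 157 CPM in EV+, and 176, 188 and 165 CPM in EV-. Both control libraries were above every nephritic library. It fell by 0.54 in GN (SE 0.115, limma adjusted p = 0.0392) and by 0.41 in EV- (SE 0.105, limma adjusted p = 0.0720) relative to control. The GN call ended without any 1 of the control or GN libraries (limma adjusted p = 0.122 to 0.417), and the EV- call without either control library, EV- replicate 1 or EV- replicate 3 (0.149 to 0.369).

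*Ncoa4*, the receptor that carries ferritin to lysosomes for breakdown, was at 32.2 and 32.9 CPM in control, 45.1 and 46.3 CPM in GN, 40.5, 45.2 and 49.1 CPM in EV+, and 39.0, 43.7 and 38.8 CPM in EV-. Control was below every nephritic library. It rose over control by 0.48 in GN (SE 0.122, limma adjusted p = 0.0980) and by 0.45 in EV+ (SE 0.112, limma adjusted p = 0.0571). The GN call ended without any 1 of the control or GN libraries, EV+ replicate 3, EV- replicate 1 or EV- replicate 3 (limma adjusted p = 0.121 to 0.476). The EV+ call ended without control replicate 1 (0.216), control replicate 2 (0.249) or EV+ replicate 3 (0.197).

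*Cp*, ceruloplasmin, the ferroxidase that works beside ferroportin, was at 1.19 and 2.02 CPM in control, 7.69 and 4.26 CPM in GN, 5.63, 5.89 and 3.79 CPM in EV+, and 4.86, 5.30 and 1.83 CPM in EV-. It rose in EV+ over control by 1.23 (SE 0.342, limma adjusted p = 0.0902), and EV- replicate 3 alone among the nephritic libraries fell within the control range. The call ended without any 1 of the control, GN or EV+ libraries, or EV- replicate 1 (limma adjusted p = 0.102 to 0.356). With all libraries kept, edgeR's quasi-likelihood test did not call *Cp* in EV+ against control, while the likelihood-ratio test and DESeq2 did.

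Genes that respond to Nrf2, the factor that also drives *Hmox1*, showed no call: of 12 listed, all had a row, none was called in any comparison by limma, edgeR or DESeq2, and 0 to 3 had an unadjusted p under 0.05 by limma in a comparison, 1 of them in GN against control. Their median difference was -0.05 in GN against control.

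Markers of red pulp macrophages, a list that shares *Hmox1*, *Slc40a1*, *Cd163* and *Spic* with the genes above, had a row for 15 of 21. In EV- against GN limma called 2, both lower (0.322% of all genes), and 9 had an unadjusted p under 0.05. The median difference was -0.55 against 0.00 over all genes. The likelihood-ratio test and DESeq2 each called 3 there, with *C1qb* added (means of 9.95 CPM in GN and 3.97 CPM in EV-). *Vcam1*, an adhesion molecule of red pulp macrophages, was at 6.11 and 8.74 CPM in GN and 2.72, 0.917 and 2.33 CPM in EV-. It was at 2.07, 2.27 and 2.54 CPM in EV+ and 4.70 and 4.83 CPM in control, so that GN was highest and both EV groups were below control. Its difference of EV- from GN was -1.53 (SE 0.279, limma adjusted p = 0.0406).

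*Nr1h3*, which encodes the sterol sensor LXRα needed by some splenic macrophages, was at 77.3 and 81.8 CPM in GN and 55.2, 59.8 and 47.8 CPM in EV-. EV+ (67.0, 70.5 and 62.2 CPM) and control (68.8 and 70.4 CPM) lay between them. Its difference of EV- from GN was -0.55 (SE 0.106, limma adjusted p = 0.0609). *Vcam1* was called without EV- replicate 1 (limma adjusted p = 0.0236) and was not called without GN replicate 1 (0.185) or GN replicate 2 (0.466). *Nr1h3* was not called without GN replicate 1 (0.380), GN replicate 2 (0.476), EV- replicate 1 (0.109) or EV- replicate 3 (0.142).

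*Adgre1*, at 1025 and 1042 CPM in control, was at 1187 and 1275 CPM in GN, 1283, 1491 and 1261 CPM in EV+, and 1214, 1353 and 1202 CPM in EV-. It rose in EV+ over control by 0.38 (SE 0.0846, limma adjusted p = 0.0325), a call that ended without control replicate 1 (0.178) or control replicate 2 (0.194). The same markers gave a median of 0.36 in GN against control, with no call by limma, edgeR or DESeq2 and 3 at an unadjusted p under 0.05, and of 0.13 in EV+ against EV-, likewise with no call and 2 at an unadjusted p under 0.05. In EV+ against GN the median of the markers was -0.28, limma called none of them and 6 had an unadjusted p under 0.05. The likelihood-ratio test and DESeq2 called 1 there, *Vcam1*. Markers of other cells also differed between EV- and the other nephritic groups. *Plvap*, an endothelial marker, was at 108 and 82.0 CPM in control, 183 and 163 CPM in GN, 147, 122 and 124 CPM in EV+, and 85.5, 68.1 and 72.3 CPM in EV-. It was lower in EV- than in GN (limma adjusted p = 0.000832) and in EV+ (0.0394). The list it comes from did not move with it. Its 4 stromal and endothelial markers had a median difference of 0.06 in EV- against GN and 0.20 in EV+ against EV-. *Pecam1*, also an endothelial marker, averaged 177 CPM in EV-, 172 CPM in GN and 191 CPM in EV+. Among the 14 T and NK cell markers the median difference was 1.12 in EV- against GN and -1.14 in EV+ against EV-, with no call by limma and 9 at an unadjusted p under 0.05 in each. Their part in the results of *Spic*, *Vcam1* and *Nr1h3* was not tested.

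**Figure D5:**
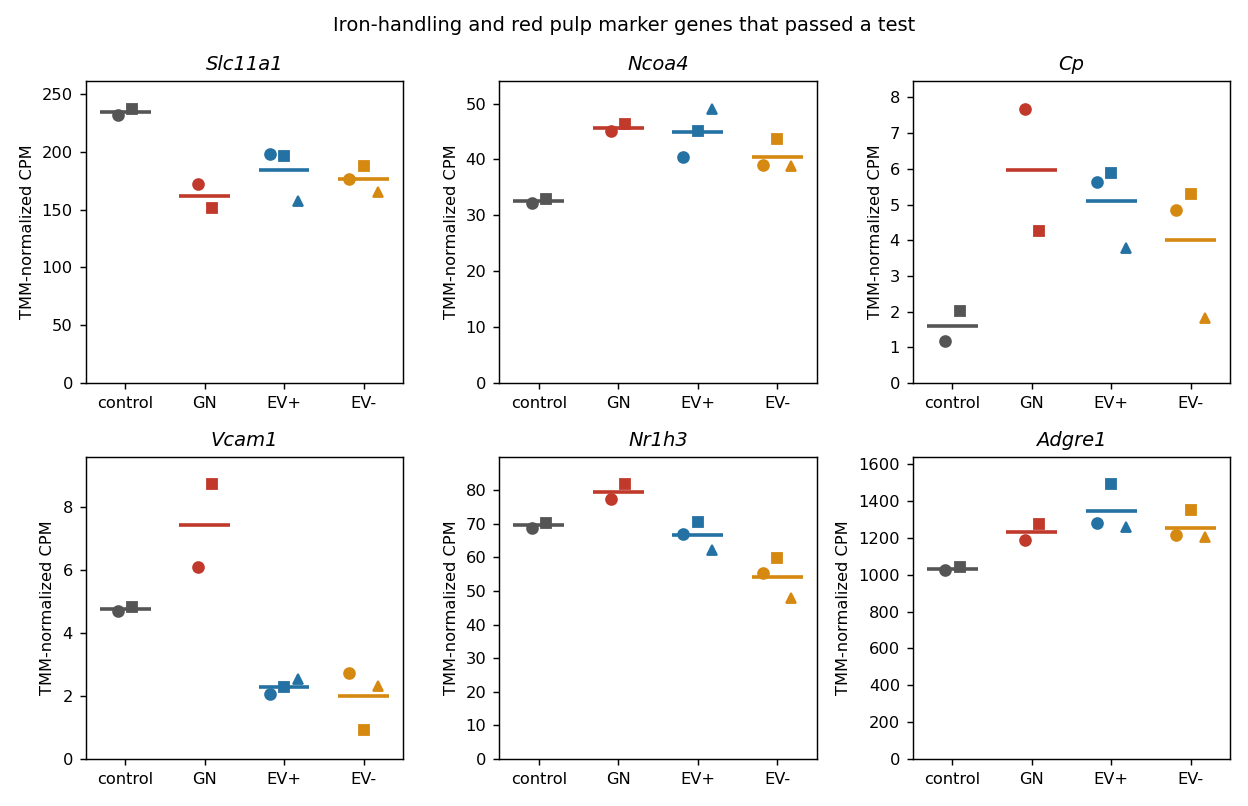
TMM-normalized CPM (y axis, from 0) of Slc11a1, Ncoa4, Cp, Vcam1, Nr1h3 and Adgre1 in each library of control, GN, EV+ and EV- (x axis), with points for libraries (circle, square and triangle for replicates 1, 2 and 3) and lines for group means. Slc11a1 is highest in control (231 and 237 CPM), Ncoa4 lowest in control (32.2 and 32.9 CPM), and the 3 EV- points of Nr1h3 lie lowest (47.8 to 59.8 CPM).

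Genes whose levels ran most like those above were ranked by Pearson correlation of log2(CPM + 1) over the 10 libraries among 7193 genes with a mean of at least 5 CPM, as a description of libraries that share groups and depth. For *Hbb* these were *Prkra* (r = 0.95), *RGD1311805* (0.94), *Eef2k* (0.89), *Ppp1r14c* (0.89) and *Lims1* (0.88). For *Hmox1* they were *RT1-DMa* (0.95), *Klf6* (0.94), *Csf2ra* (0.93), *Rps9* (0.92) and *Sat1* (0.92). For *Slc40a1* they were *Adh5* (0.94), *Avpi1* (0.91), *Myg1* (0.87), *Asb8* (0.87) and a gene whose symbol had been turned into a date (0.86). For *Cd163* they were *Dcaf15* (0.91), *Utp3* (0.89), *Fgfrl1* (0.88), *Adck4* (0.87) and *Rab33b* (0.85), and for *Tfrc* *Lrch1* (0.92), *Zeb2* (0.91), *Adrbk1* (0.88), *Lrp6* (0.88) and *Themis2* (0.88). Among the 10 genes themselves, *Fth1* and *Ftl1* (0.89) and *Hmox1* and *Ftl1* (0.84) followed *Hba1* and *Hbb*, and the hemoglobin chains ran against the ferritin chains (-0.68 to -0.60).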

How the data were processed

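RNA from sorted splenic M2 macrophages was made into libraries with the SMART-Seq v4 and Nextera XT kits and sequenced in pairs. The authors aligned reads to rn6 with STAR (version 2.5.3), counted them on RefSeq genes with HTSeq (version 0.6.0, intersection-strict), removed genes with a maximum under 1 CPM and applied TMM normalization in edgeR. The deposited values are this normalized signal, one column a library, and all values were whole reads on division (100% within 0.05 reads). The study describes its replicates as biological. Reads per library on the genes of the table ranged from 19270515 to 26617093. Replicates differed by a chi-square of 13.4 to 45.0 per degree of freedom, so that none was a copy. No column was left out, and 18 symbols turned into dates could not be named.

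Log2 values, with a pseudocount of 1 added first, were fitted with limma (version 3.58.1, in R 4.3.3), the 4 groups in one model of 6 residual degrees of freedom whose variance prior followed intensity. A gene was called where its Benjamini-Hochberg adjusted p over 9003 genes was under 0.1. The alternatives were edgeR (version 4.0.16, quasi-likelihood and likelihood-ratio tests) and DESeq2 (version 1.42.0) on recovered reads, a pseudocount of 0.1, no trend, RLE size factors, a filter of 1 CPM in 2 or more libraries, a threshold of 0.05, the replicate number as a block, only the groups compared, and each library left out. Tests were tried on simulated data. Genes were chosen with earlier results of these data known, as were the lists, so no set test was run. Beyond the 10 genes, the text names list members called in any comparison, the leading gene of each role (some genes this rule names are not reported here), the leading markers of other cells, and the genes most like *Hbb*, *Hmox1*, *Slc40a1*, *Cd163* and *Tfrc*; *Mrc1*, *Prf1* and *Plvap* and the absent erythroid genes were named after their values were seen. Promoters came from RefSeq (GRCr8). Residuals of EV+ and EV- libraries of the same number correlated at 0.122 to 0.295 in 3 pairs, so the numbers may pair them, from the data alone. The main fit did not use this pairing, and only the alternative with the replicate block did. Whether libraries of the same number came from the same rats was not given, so the 8 nephritic libraries may not all come from separate animals. Hemoglobin genes have closely related copies, and how reads of *Hba1* and *Hbb* were split among them was not tested.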

Additional observations from a re-analysis of the deposited data

How the results depend on the processing

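The count of the 10 genes called in GN against control was 2 under every alternative that kept all libraries, and 0 to 2 as each library was left out. In EV+ against GN, EV- against GN and EV+ against EV- it was 0 under every alternative. Among the 4 groups, where limma called 1, it was 2 by the likelihood-ratio test, DESeq2, a pseudocount of 0.1 and no trend, 0 at an FDR under 0.05, and 0 to 2 as each library was left out. In EV+ against control, where limma called 0, it was 3 by the likelihood-ratio test and DESeq2, 1 with a pseudocount of 0.1, no trend or the replicate block, and 0 to 1 as each library was left out. In EV- against control, where limma called 1, it was 2 by the quasi-likelihood and likelihood-ratio tests, a pseudocount of 0.1 and the replicate block, 3 by DESeq2, 0 with only the groups compared, and 0 to 2 as each library was left out. The cause was not tested. Control and GN libraries of the same number correlated at 0.088 in their residuals, and other pairs of groups at -0.141 to 0.052, so there the numbers were not taken to pair samples. The block changed no call between EV+ and EV-. The *Hba1* difference between EV+ and EV- ranged from -0.29 to 0.036 as each library was left out, turning to 0.036 without EV+ replicate 1. The fitted rise of *Hba1* in GN ranged from 1.43 to 3.60 over the alternatives with all libraries, and that of *Hbb* from 1.35 to 1.93. The calls given above for *Slc11a1*, *Ncoa4*, *Cp*, *Vcam1*, *Nr1h3* and *Adgre1* were each lost under some alternative that kept all libraries. With 2 libraries in control and in GN, single libraries decided the calls, and the few reads of *Hba1* in control, of *Cd163* and of *Slc40a1* limited what could be detected.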
